A study of Homo sapiens with 12 samples.

Results

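Pooled knockdown of mutant p53 in LMSU cells was described from 8 of the 12 libraries of the study: 4 libraries with a hairpin against p53, set against 4 control libraries. LMSU is a human gastric cancer line, and the labels give it the p53 variant R175H. The 4 hairpin libraries were 2 of shRNA 1 and 2 of shRNA 2, both labelled no for R175H p53. The 4 control libraries were 2 of a scramble hairpin and 2 of a vector, both labelled yes. All 4 groups carried the label of doxycycline treatment, so the controls share the drug with the hairpins, and Ham's F-10 medium was used throughout. The other 4 libraries, a knockout (sg-1) and its control (V2), both marked GFP and labelled as without doxycycline, share no library with this comparison and were used only to look up the genes described here. The labels name no clone and no culture, so whether a pair of libraries was grown separately is unknown. The spread between libraries of a construct may thus be technical, and p-values of single constructs and of the knockout rest on it. Those of the pooled test also take in the difference between the 2 constructs of a side. Of 25435 genes in the table, 12631 had enough counts to be tested, and 1496 of those had all 4 hairpin libraries on one side of all 4 control libraries.

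The p53 protein is a transcription factor that halts the cell cycle or starts cell death after damage. R175H is a common change in its DNA-binding part that unfolds the site which grips DNA, and the mutant protein tends to accumulate in tumour cells, where it loses activation of the usual targets and can bind other transcription factors. A short hairpin RNA is cut by the microRNA machinery of the cell and directs destruction of the matching messenger RNA. A scramble hairpin loads the same machinery without that match, whereas a vector carries no such hairpin, so the controls differ in kind.

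Library totals of the 8 libraries ran from 9738094 to 16823246 counts, and the libraries of each construct differed by more than sampling noise, with a chi-square per degree of freedom of 1.56 to 2.31. Levels are given as CPM, counts scaled to a common library total, with the TMM factor of each library, which sets aside the most changed genes. All 14 mesenchymal marker genes were tested, but their levels differed widely. VIM was abundant, at 12770 to 15630 CPM, whereas ACTA2 ran from 3.1 to 5.2 CPM and POSTN from 5.1 to 12.5 CPM. The summed level of the 14 was 32300 to 38070 CPM with the hairpins and 33190 to 34340 CPM in the controls. Epithelial markers summed to 416 to 440 CPM with the hairpins and 360 to 441 CPM in the controls, almost all of it the keratins KRT8 and KRT18, while EPCAM stayed at or below 0.14 CPM and CDH1 at or below 0.15 CPM. None of the 13 gastric and intestinal lineage markers in the table reached 1 CPM in any of the 8 libraries, and TFF1 and TFF2 had 0 counts in all of them, so defining markers of the labelled tissue were at or near 0. Leukocyte markers summed to 365 to 431 CPM with the hairpins and 392 to 422 CPM in the controls, nearly all from CD68, with PTPRC at or below 0.26 CPM, and endothelial markers summed to at most 1.69 CPM in any library. In such bulk RNA, fewer cells of a type and less RNA per cell cannot be told apart.

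The pooled comparison asks which genes stand apart with either hairpin from either control. TXNIP, KLF10, TGFBR2, CSF2RB and TRPV1 were among the genes that rose, and RGS4, THY1, STC2 and CYR61 among those that fell. By edgeR's quasi-likelihood test with Benjamini-Hochberg adjustment, 150 genes passed an adjusted p of 0.05, which is 1.19% of the genes tested, with 77 up (0.61%) and 73 down (0.578%). Not overlapping was the criterion for the 1496 genes (11.8% of those tested, 750 or 5.94% up and 746 or 5.91% down), and it rests on the same libraries as the test, so the 2 counts do not support each other. All 150 called genes were among the 1496. Sizes were modest: the median absolute log2 difference was 0.54 over the called genes and 0.14 over all tested genes, 65 called genes differed by at least 1.5-fold, and 8 by at least 2-fold, all 8 of them lower with the hairpins. At the threshold, NECAP1 (0.40) and COPA (-0.31) lay just inside with an adjusted p of 0.0499, and NR2C2 (0.31, adjusted p 0.0507) and PLAT (-0.78, adjusted p 0.0522) just outside.

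The test counted 4 libraries a side, although each side held only 2 constructs. With the counts of each construct summed, so that 2 stood against 2, 1 gene was called and 412 had an unadjusted p below 0.05. Leaving out any of the 8 libraries left 1 to 49 calls: 1 without replicate 1 of shRNA 2 or of vector, 3 without replicate 2 of vector, 4 and 49 without replicate 1 and 2 of shRNA 1, 8 without replicate 2 of shRNA 2, and 14 and 46 without replicate 1 and 2 of scramble.

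Within a side the constructs differed widely. In a fit with 1 coefficient per construct, 39.7% of tested genes differed between shRNA 1 and shRNA 2 and 43.1% between scramble and vector. The called genes lay below that: the median absolute log2 difference between the hairpins was 0.12 over the 150 called genes, against 0.21 over all tested genes, and that between the controls 0.12 against 0.21. The pooled test favours genes with a small spread within a side, so these medians describe the selection. In the same fit 33.8%, 41.8%, 32.3% and 47.8% of genes differed for shRNA 1 against scramble, shRNA 1 against vector, shRNA 2 against scramble and shRNA 2 against vector, and 532 genes did so in the same direction in all of them. These comparisons share libraries, so the 532 are no independent repeat. All 150 called genes were among the 532.

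TXNIP encodes the thioredoxin-interacting protein, an arrestin-fold protein that binds thioredoxin and lowers glucose uptake. The glucose-sensing factor MondoA drives it through carbohydrate response elements in its promoter. The proximal promoters of TXNIP and RGS4 are shown, the first for its known response to glucose and the second because RGS4 had the largest decrease described here. They come from RefSeq, build GRCh38.p14, and run from 250 bases before to 50 bases after the start of the gene, 5′ to 3′ on its own strand: TXNIP at chr1:145996530-145996829 on the minus strand, RGS4 at chr1:163068621-163068920 on the plus strand. Capitals mark matches, on either strand, to CCAAT or to the carbohydrate response element, searched as the parts CACGNG and CNCGNG with 5 bases of any kind between them.
TXNIP: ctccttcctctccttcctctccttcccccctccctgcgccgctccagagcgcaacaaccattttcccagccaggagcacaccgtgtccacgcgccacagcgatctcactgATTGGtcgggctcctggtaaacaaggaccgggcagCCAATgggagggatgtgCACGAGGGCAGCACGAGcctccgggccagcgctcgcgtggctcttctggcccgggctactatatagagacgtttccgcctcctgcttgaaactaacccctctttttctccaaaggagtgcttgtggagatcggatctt
RGS4: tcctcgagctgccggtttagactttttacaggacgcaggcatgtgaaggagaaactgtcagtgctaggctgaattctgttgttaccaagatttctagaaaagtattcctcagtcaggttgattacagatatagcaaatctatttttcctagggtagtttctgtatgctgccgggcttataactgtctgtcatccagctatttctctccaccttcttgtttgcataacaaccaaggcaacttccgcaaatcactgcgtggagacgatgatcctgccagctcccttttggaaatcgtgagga
The TXNIP promoter held the carbohydrate response element at position 163 and CCAAT boxes at positions 111 and 146, counted from 1 at the left end. That element occurred in 0.524% of all 27305 promoters of the table and in 0.845% of those of tested genes. TXNIP was the one called gene that rose and held it, among 62 with a promoter in the table, and 0 of 59 that fell did so. The letters searched were loosened after a stricter spelling had been counted, so these counts are a description. RGS4 held none of the motifs searched. The other motifs searched were the E-box CACGTG, found in 12.9% of the promoters of genes that rose, 8.48% of those of genes that fell, 10.1% of those of tested genes and 7.44% of all promoters, the AP-1 site TGANTCA (8.07%, 6.78%, 4.69% and 7.76%), the TEAD site GGAATG (9.68%, 18.6%, 11% and 14.1%) and CCAAT itself (37.1%, 35.6%, 36.6% and 35.7%). A match describes the letters of the window and shows no binding.

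TXNIP stood at 611 and 624 CPM in scramble, 542 and 557 CPM in vector, 948 and 898 CPM with shRNA 1 and 1210 and 1201 CPM with shRNA 2. Every hairpin library was above every control library, and shRNA 2 was above shRNA 1. The side means were 1064 ± 165 CPM with the hairpins and 583 ± 40.1 CPM in the controls (SD, n = 4), a rise of 0.87 on the log2 scale (SE 0.11, adjusted p 0.019) or 1.82-fold. The difference of single constructs ran from 0.58 for shRNA 1 against scramble to 1.13 for shRNA 2 against vector. Of 9 tested genes on the list of TXNIP relatives and MondoA targets, 3 rose and 0 fell, beside 0.61% and 0.578% of all tested genes. This list was built around TXNIP, and it and those below were chosen with earlier results known, so such counts are no evidence about the lists. ARRDC3, another arrestin-fold gene, rose by 0.55 (SE 0.10, adjusted p 0.040), from 85.2 and 82.9 CPM in scramble and 68.6 and 65.8 CPM in vector to 102 and 103 CPM with shRNA 1 and 120 and 118 CPM with shRNA 2. KLF10, a zinc finger repressor that responds to both glucose and TGF-beta, rose by 0.67 (SE 0.074, adjusted p 0.013), and its controls lay close together at 60.7 to 63.0 CPM, below hairpin libraries at 89.1 to 106 CPM. The median of the 9 genes was -0.01, beside 0.00054 over all tested genes, and the lowest member was at -0.42. Of 16 thioredoxin and peroxiredoxin genes, the partners of TXNIP in redox control, 0 were called, and their median was -0.16.

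**Figure D1:**
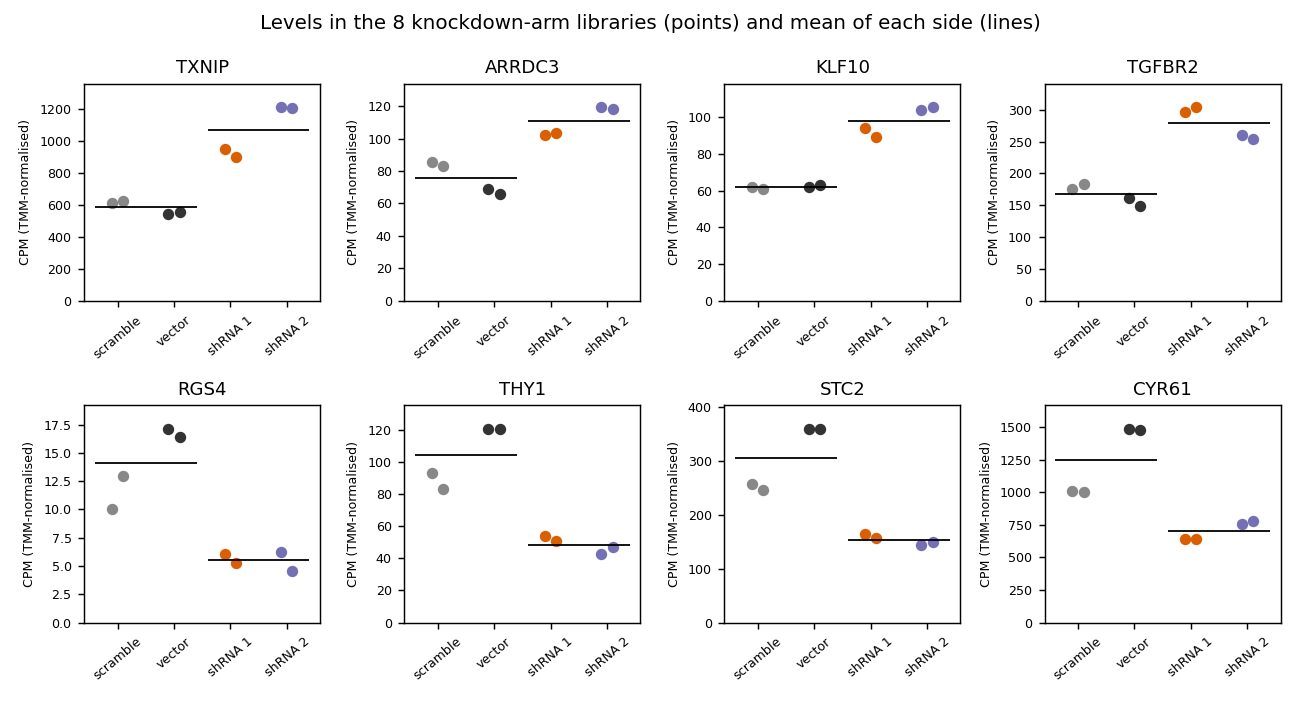
TMM-normalised CPM (y axis) of 4 genes that rose and 4 that fell in each of the 8 libraries, by construct (x axis). Points are libraries and lines are the means of the 4 control and the 4 hairpin libraries; in every panel the hairpin points lie on one side of the control points, and for RGS4, THY1, STC2 and CYR61 vector lies above scramble.

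TGFBR2, the type II receptor that binds TGF-beta and activates the type I receptor, was at 175 and 184 CPM in scramble, 161 and 149 CPM in vector, 296 and 305 CPM with shRNA 1 and 261 and 254 CPM with shRNA 2. The lowest hairpin library was 254 CPM and the highest control 184 CPM, and the gene rose by 0.74 (SE 0.092, adjusted p 0.018). Over the 28 tested TGF-beta ligands, receptors and targets, 3 rose and 2 fell, beside 0.61% and 0.578% of all tested genes, with a median of 0.05. ID2, an inhibitor of helix-loop-helix factors and a target of the BMP branch, rose by 0.44 (adjusted p 0.033), and KLF10 also belongs to this list. CYR61 and CTGF, secreted matricellular proteins induced by TGF-beta and by YAP, fell, so the members did not move one way.

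Of 17 cytokine receptor genes 3 rose and 0 fell, beside 0.61% and 0.578% of all tested genes. CSF2RB, the shared beta chain of the IL-3, IL-5 and GM-CSF receptors, was at 5.77 and 5.86 CPM in scramble, 6.17 and 7.02 CPM in vector, 10.5 and 13.03 CPM with shRNA 1 and 10.5 and 12.2 CPM with shRNA 2. Its level was low in all libraries, and it rose by 0.89 (SE 0.12, adjusted p 0.019). Lack of overlap was a condition for naming it. OSMR, a signalling chain of the oncostatin M receptor, rose by 0.42 (adjusted p 0.021), and IFNGR1, the ligand-binding chain of the interferon gamma receptor, by 0.44 (adjusted p 0.046). The median of the list was 0.05, and 9 of the 17 lay above 0. PDGFRA, a receptor tyrosine kinase typical of mesenchymal cells, rose by 0.40 (adjusted p 0.031), from 2374 to 2591 CPM in the controls to 3117 to 3378 CPM with the hairpins. TNFRSF10D, a decoy receptor for the death ligand TRAIL, rose by 0.76 (adjusted p 0.031), and IGF2R, which carries lysosomal enzymes and clears IGF2, by 0.76 (adjusted p 0.036). For both, shRNA 2 gave the higher levels: TNFRSF10D was at 36.7 and 36.3 CPM with shRNA 1 and 48.8 and 44.8 CPM with shRNA 2, and IGF2R at 330 and 324 CPM against 463 and 458 CPM. TRPV1, the heat and capsaicin channel, was at 15.6 to 18.7 CPM with the hairpins and 8.69 to 11.3 CPM in the controls, a rise of 0.80 (SE 0.12, adjusted p 0.020). It was the one of 11 tested TRP channel genes that was called.

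Other large rises were those of ZNF302, a zinc finger gene (0.98, adjusted p 0.047), FAM198B, a Golgi protein gene (0.91, adjusted p 0.019), HIST1H2AC, a histone H2A gene (0.90, adjusted p 0.045), SULF1, an extracellular heparan sulfatase gene (0.76, adjusted p 0.040), DOCK4, an activator of small GTPases (0.72, adjusted p 0.037), and AREL1, a ubiquitin ligase gene (0.70, adjusted p 0.031). ZNF302 was the least even of them, with hairpin libraries at 9.74, 11.3, 9.53 and 6.01 CPM and controls from 3.95 to 5.31 CPM. Histone genes have near-identical copies, so the level of HIST1H2AC is uncertain where reads could be split among them. DGCR8, which with DROSHA cuts microRNA precursors in the nucleus, rose by 0.69 (adjusted p 0.021): its controls were at 12.8, 14.9, 11.6 and 11.9 CPM and its hairpin libraries at 19.0, 21.3, 20.6 and 21.8 CPM. It was the 1 called of 15 microRNA processing genes, whose median was 0.13, beside 1.19% called over all tested genes.

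RGS4 had the largest decrease among the genes named. Its product speeds up GTP hydrolysis by G alpha subunits and so shortens signals from G protein-coupled receptors. RGS4 was at 10.002 and 12.9 CPM in scramble, 17.1 and 16.4 CPM in vector, 6.03 and 5.29 CPM with shRNA 1 and 6.25 and 4.55 CPM with shRNA 2. The hairpin libraries lay together at 5.53 ± 0.77 CPM, and the controls, at 14.1 ± 3.30 CPM (SD, n = 4), were split between scramble and vector. RGS4 fell by 1.35 on the log2 scale (SE 0.19, adjusted p 0.019), and the single differences ran from -1.01 to -1.64. RGS4 was the 1 called of 16 tested RGS genes, whose median was -0.09, and of 19 heterotrimeric G protein subunit genes 0 were called. Over all tested genes 1.19% were called.

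THY1, a GPI-anchored glycoprotein of mesenchymal and neural cell surfaces, was at 92.9 and 82.8 CPM in scramble, 121 and 121 CPM in vector, 53.7 and 50.7 CPM with shRNA 1 and 42.6 and 47.1 CPM with shRNA 2. The highest hairpin library, at 53.7 CPM, lay below the lowest control, at 82.8 CPM, and THY1 fell by 1.10 (SE 0.13, adjusted p 0.016), with single differences from -0.75 to -1.42. Of 18 GPI-anchored surface protein genes, THY1 was the 1 called, beside 1.19% of all tested genes, and the median was -0.06. THY1 is also a mesenchymal marker, and of those 14 genes PDGFRA rose, THY1 fell and the median was 0.07.

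STC2, a secreted glycoprotein of calcium and phosphate balance that the stress factor ATF4 induces, fell by 0.99 (SE 0.13, adjusted p 0.019). It was at 257 and 245 CPM in scramble, 360 and 359 CPM in vector, 165 and 158 CPM with shRNA 1 and 143 and 149 CPM with shRNA 2. CLU, the extracellular chaperone clusterin, fell by 0.995 (adjusted p 0.033), and unlike RGS4 and THY1 its controls were alike, at 16.3 to 19.5 CPM, while shRNA 1 gave 11.5 and 11.5 CPM and shRNA 2 gave 7.03 and 7.26 CPM. PTN, the heparin-binding growth factor pleiotrophin, fell by 0.88 (adjusted p 0.033), SUN3, a nuclear envelope protein gene, by 0.84 (adjusted p 0.042), ATP8B1, a phospholipid flippase gene, by 0.81 (adjusted p 0.033), and ELMO1, an engulfment and cell motility gene, by 0.80 (adjusted p 0.033). Among secreted matrix proteins, CYR61 fell by 0.82 (SE 0.15, adjusted p 0.037). It was at 1009 and 1005 CPM in scramble and 1488 and 1476 CPM in vector, against 639 and 639 CPM with shRNA 1 and 757 and 781 CPM with shRNA 2. CTGF fell by 0.62 (adjusted p 0.037), and NOV, of the same CCN family, by 0.70 (SE 0.12, adjusted p 0.033). The family was looked at after these values had been seen, and of 4 tested members the fourth, WISP1, was at 0.89 (adjusted p 0.28). Of 24 matrix glycoprotein and proteoglycan genes, NID1, a basement membrane linker, fell by 0.53 (adjusted p 0.021), CCDC80, a matrix protein gene, fell by 0.70 (adjusted p 0.024), and MFAP2, a microfibril component, rose by 0.58 (adjusted p 0.042). The median of that list was 0.0029, and of 18 collagen chains and 24 integrin and laminin genes 0 were called. Over all tested genes 1.19% were called.

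**Figure D2:**
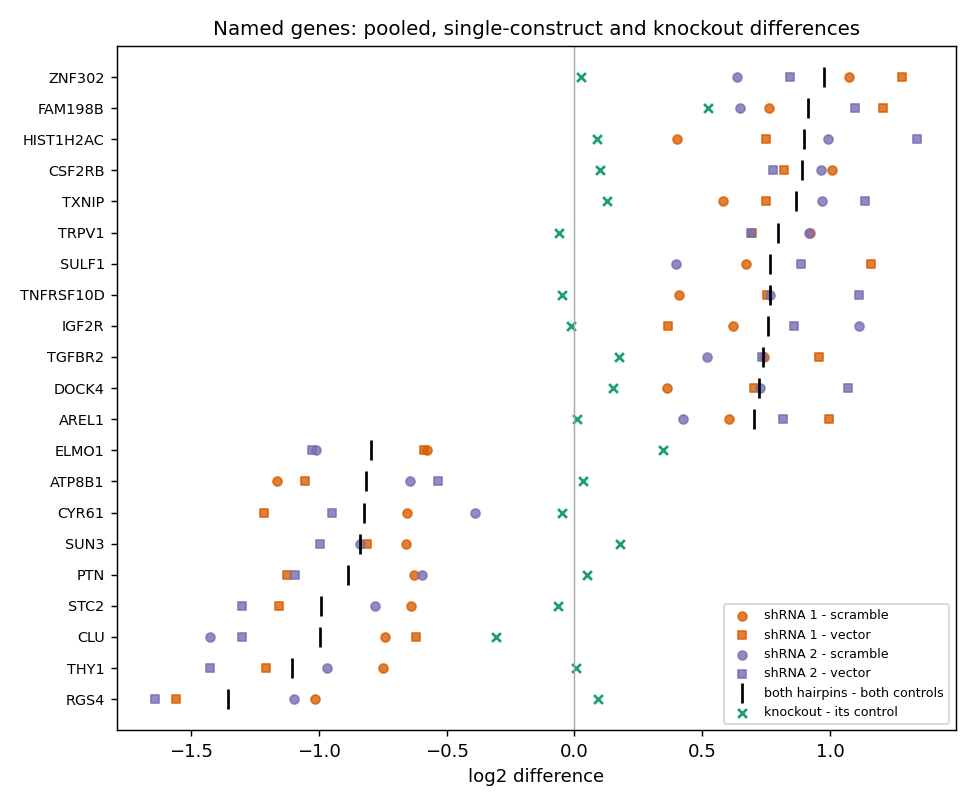
log2 differences (x axis) of the 21 named genes with the largest changes (y axis). Circles are each hairpin against scramble, squares each hairpin against vector, and black ticks the pooled difference. Green crosses are the knockout against its own control (SULF1 has none). All circles and squares of a gene lie on the same side of 0 as its tick, whereas green crosses lie on either side. For every gene that fell from CYR61 down except CLU, the vector squares lie farther from 0 than the scramble circles of the same hairpin.

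Of 29 tested textbook p53 targets, TP53INP1 rose (0.61% of all tested genes did), GADD45A fell (0.578%), and the median was 0.06. TP53INP1, a stress-induced promoter of autophagy and cell death, was at 13.3 to 15.3 CPM in the controls, 20.5 and 18.4 CPM with shRNA 1 and 25.1 and 25.1 CPM with shRNA 2, a rise of 0.64 (adjusted p 0.038). GADD45A, a growth arrest gene, was at 49.7 to 61.9 CPM in the controls and 35.6 to 39.7 CPM with the hairpins, and it fell by 0.54 (adjusted p 0.023). CDKN1A, the gene of the cell cycle inhibitor p21, did not pass the pooled test (0.63, SE 0.32, adjusted p 0.35). It was at 110 and 113 CPM in scramble, 66.6 and 65.2 CPM in vector, 80.5 and 85.7 CPM with shRNA 1 and 184 and 198 CPM with shRNA 2, so shRNA 1 lay between the controls and shRNA 2 above both. MDM2, the ubiquitin ligase of p53, was at -0.08 (adjusted p 0.56). Its hairpin libraries, at 35.6 to 38.4 CPM, all lay below its controls, at 39.0 to 40.7 CPM, but the difference did not pass the test.

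Of 20 tested ER chaperone genes, which fold secreted and membrane proteins, 2 fell and 0 rose, beside 0.578% and 0.61% of all tested genes. Of the 20, 18 lay below 0, and the median was -0.10. For shRNA 1 and shRNA 2 the list medians were -0.32 and -0.20 against scramble and -0.12 and -0.04 against vector. Scramble was above vector by a median of 0.22. HSP90B1, the HSP90 of the endoplasmic reticulum, was at 1843 to 1904 CPM in the controls and 1434 to 1505 CPM with the hairpins, with both hairpins and both controls close together, and fell by 0.35 (SE 0.061, adjusted p 0.031). PDIA4, a disulfide isomerase gene, fell by 0.36 (adjusted p 0.042). HSPA5, the master chaperone BiP, was at -0.30 (adjusted p 0.11) and HYOU1 at -0.40 (adjusted p 0.059), and their libraries did not overlap either. In the whole list 6 of 20 lay below all controls without overlap, as 5.91% of all tested genes did. Of 26 ATF4 and amino acid response genes, STC2 was the 1 called, and 18 lay below 0 with a median of -0.21. Against vector the medians were -0.36 for shRNA 1 and -0.60 for shRNA 2, and against scramble 0.16 and -0.02, with scramble below vector by a median of 0.52.

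Of the tested ribosomal protein genes, 38 of 38 lay above 0, with a range from 0.11 to 0.35 and a median of 0.22, and 17 lay above all controls without overlap, as 5.94% of all tested genes did. None passed the test, with a lowest adjusted p of 0.084 and 24 at an unadjusted p below 0.05. RPS12 was at 954 and 925 CPM in scramble, 745 and 737 CPM in vector, 1178 and 1087 CPM with shRNA 1 and 999 and 1007 CPM with shRNA 2 (0.35, adjusted p 0.14). The controls also differed, with a median of 0.25 higher in scramble than in vector, and against scramble alone the medians were 0.13 for shRNA 1 and 0.08 for shRNA 2. Many ribosomal protein genes have processed copies in the genome that could take up reads, so single values are uncertain.

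G2/M and mitosis genes lay on the other side: 25 of 25 were below 0 with a median of -0.55, and 0 passed the test (lowest adjusted p 0.090, 18 with an unadjusted p below 0.05). AURKA, PLK1, CDC20 and TTK were the 4 whose libraries did not overlap, beside 5.91% of all tested genes in that direction. AURKA, a spindle pole kinase gene, was at 32.4 and 35.5 CPM in scramble, 55.2 and 59.3 CPM in vector, 26.4 and 25.4 CPM with shRNA 1 and 30.8 and 26.4 CPM with shRNA 2 (-0.74, adjusted p 0.090). The list median was 0.05 for shRNA 1 against scramble, -0.32 for shRNA 2 against scramble, -0.67 for shRNA 1 against vector and -1.01 for shRNA 2 against vector, and scramble was below vector by a median of 0.72.

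For some lists the values depended on the control. Hypoxia response genes had medians of 0.44 and 0.53 against scramble for shRNA 1 and shRNA 2 and of -0.37 and -0.24 against vector, and in the pooled comparison 0 of 23 were called or free of overlap (median 0.0036). NF-kB targets and chemokines had medians of -0.53 and -0.03 against scramble and 0.66 and 1.17 against vector, and 0 of 20 were called or free of overlap (median 0.21). Glycolysis genes had medians of 0.34 and 0.36 against scramble and -0.47 and -0.33 against vector, with 0 of 19 called and 1 free of overlap. Over all tested genes 11.8% were free of overlap, so counts this low in short lists say little about them. Lists with 0 calls also included 25 mevalonate and cholesterol synthesis genes, 22 nucleotide synthesis genes, 25 G1/S genes, 21 interferon-stimulated genes, 31 proteasome subunits, 24 MAPK feedback and immediate early genes and 12 cadherins and EMT regulators. Over all lists, 24 of the 603 distinct genes tested were called, 13 up and 11 down, beside 1.19% of all tested genes. The lists were chosen with earlier results known, so this count is no evidence about them.

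**Figure D3:**
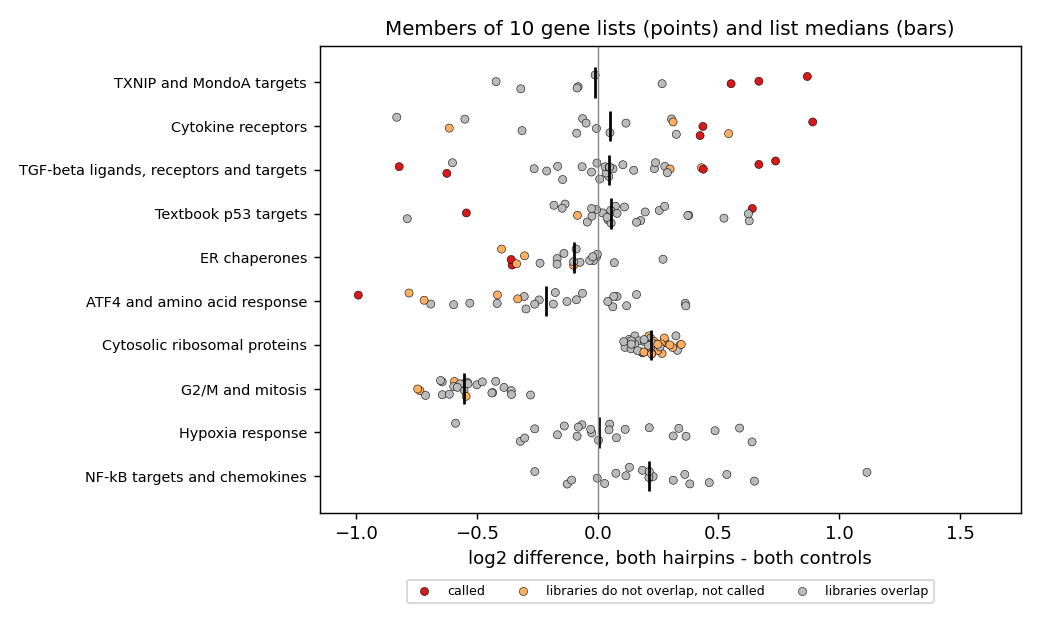
Pooled log2 difference (x axis) of each tested member of 10 gene lists (y axis), with the list median as a black bar. Red points are called, orange points have libraries that do not overlap but were not called, and grey points overlap; the ribosomal list is tight and above 0 with 17 orange points, the G2/M list is below 0 with 4, and the hypoxia and NF-kB lists have grey points alone.

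The genes closest to TXNIP in pattern, by Pearson correlation of log2 CPM over the 8 libraries, were DCP2 (r 0.994), CERS2 (0.990) and PDGFRA (0.987). DCP2, which removes the cap of messenger RNAs before decay, rose by 0.59 (adjusted p 0.019), while CERS2, a ceramide synthase gene, was at 0.22 (adjusted p 0.10). PTGR1 (0.995), PTN (0.992) and SNW1 (0.988) were closest to RGS4, and STC2 (0.996), QSOX1 (0.993) and TTC7A (0.992) to THY1. PTN and STC2 are both called, while PTGR1 (-0.37), SNW1 (-0.16), QSOX1 (-0.32) and TTC7A (-0.25) followed the same order of libraries with smaller differences and were not called. The 8 libraries of a gene fall into the same 2 sides, which raises every such correlation.

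Of the 150 called genes, 149 were also tested in the knockout arm, where 0 genes were called of 12776 (0.0%) by edgeR and 159 of the 12313 genes tested in both arms had an unadjusted p below 0.05. Libraries of a group differed more there than in the knockdown arm, with a chi-square per degree of freedom of 34.4 in the control and 9.99 in the knockout. The differences between libraries of a group ran opposite ways in the knockout and its control (r -0.83), which the test did not model. A block that models it, chosen after seeing the data, did call genes, so the 0 calls do not show that the groups were alike. Of genes that rose with the hairpins, 63 of 76 (82.9%) lay above 0 in the knockout, with a median of 0.15. Of genes that fell, 36 of 73 (49.3%) lay below 0, with a median of 0.0005. Over the 12313 genes tested in both arms, 6178 lay above 0, with a median of 0.0011. Not overlapping in the knockout arm, where 23.2% of genes did so, were 31 called genes in the direction of the hairpins and 19 in the opposite one. Among the 12313 genes tested in both arms these counts were 1574 and 1288. ARRDC3 (0.57), MFAP2 (0.55), PDGFRA (0.53) and FAM198B (0.52) had the larger knockout differences among the rises named here, and ELMO1 (0.34), which fell with the hairpins, was of opposite sign. RGS4 (0.09), THY1 (0.01), TXNIP (0.13), TGFBR2 (0.17) and STC2 (-0.07) were all close to 0 there, with SEs of 0.14 to 0.21. The SEs of ARRDC3, MFAP2, PDGFRA and FAM198B were 0.20 to 0.29. Ribosomal protein genes, above 0 with the hairpins, had a knockout median of -0.13, with 38 of 38 below 0.

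Levels in the knockout arm often started elsewhere. TXNIP was at 116 and 112 CPM in the knockout control and 123 and 126 CPM in the knockout, below every library of the knockdown arm. PDGFRA was at 294 and 400 CPM in the knockout control and 547 and 452 CPM in the knockout, whereas DGCR8, at 50.2 to 58.2 CPM, was above every knockdown-arm library. RGS4 was at 5.08 and 6.19 CPM in the knockout control, within the range of the hairpin libraries (4.55 to 6.25 CPM). THY1, at 72.3 and 55.0 CPM there, was below every control of the knockdown arm. CYR61, at 1724 and 1548 CPM there, was above every knockdown-arm library. Knockout differences of such genes thus start from unlike levels. The arms differ in construct, in kind of perturbation and in the doxycycline label, and these cannot be told apart.

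Transcript length and GC content were set beside the differences. The median transcript was 5025 bases in the genes that rose, 4002 bases in those that fell and 3694 bases in all tested genes, and the median GC content was 42.2%, 47.9% and 47.9%. Across genes, Spearman's rho of the pooled log2 difference was 0.12 with transcript length and -0.10 with GC content, and that of the knockout difference was 0.31 and -0.54. With GC content it was also -0.17 for scramble minus vector and -0.14 for shRNA 1 minus shRNA 2, which compare groups of the same p53 label, and with length it was 0.06 and 0.0056. These values are a description over genes, which are not independent replicates. Long transcripts of low GC content thus tended to higher values in the knockout, and the part of these features in the share of 63 of 76 was not tested.

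**Figure D4:**
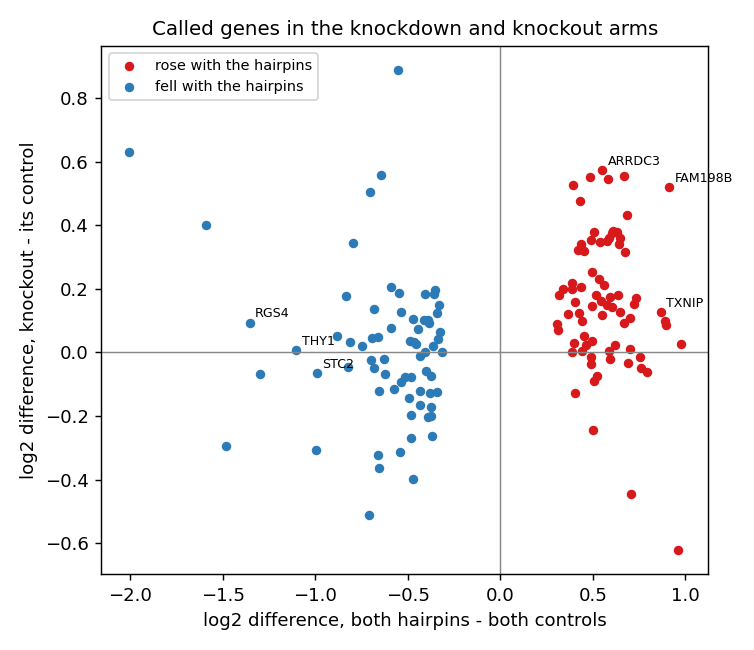
Pooled hairpin difference (x axis, log2) against the knockout difference (y axis, log2) for 146 of the called genes. Red points rose and blue points fell with the hairpins; 63 of 76 red points lie above 0 on the y axis, 33 of 70 blue points lie below 0, and TXNIP, RGS4, THY1 and STC2 lie near 0 on it.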

How the data were processed

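The authors deposited raw counts of reads by gene symbol, in 1 table. The submitters' processing notes name bcl2fastq, STAR 2.5 and build hg19. How reads were counted, and on which strand, was not given in the sources used here, so antisense or overlapping genes may share reads. Totals of 9738094 to 16823246 counts limit precision for low genes. The main test used edgeR 4.0.16 in R 4.3.3: filterByExpr (minimum count 10), TMM, and a two-sided quasi-likelihood F test of 4 hairpin against 4 control libraries, with p-values adjusted by Benjamini-Hochberg over 12631 genes. Differences of single constructs came from a fit of 4 construct groups, knockout values from the 4 knockout-arm libraries alone, and the difference between arms from a fit of 6 groups to 12 libraries.

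Named were TXNIP, RGS4, THY1, CDKN1A and MDM2, the 12 largest changes per direction among called, non-overlapping genes of at least 5 CPM (without clone, antisense, LOC, pseudogene and small RNA names), up to 4 called members per list, and 3 genes most alike to each of TXNIP, RGS4 and THY1. NECAP1, COPA, NR2C2 and PLAT mark the threshold, and RPS12, HSPA5, HYOU1, AURKA, NOV and WISP1 were named after their values were seen. Some genes that the rule picked, and the level of the targeted gene, are not reported here, though counts include them. Members and the 33 lists (719 of 720 entries matched, 9 by an older symbol) were chosen with earlier results of these data known. Promoters come from RefSeq (27305 entries; 10173 of 12631 tested genes matched), transcript lengths and GC from the longest transcript in GENCODE 29 (97.6% matched). The letters of the carbohydrate response element were loosened after a stricter spelling had been counted. The procedure was tested on simulated data. Alternatives were other size factors, DESeq2 1.42.0, limma-voom (limma 3.58.1), other filters, designs, thresholds and controls, a replicate block, and each library left out.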

Additional observations from a re-analysis of the deposited data

Results flagged for a closer look

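The highest of the 4 hairpin libraries of OSMR stood apart from the other 3: the gap to its neighbour was 0.835 of the whole range, above the critical value of Dixon's test for 4 values. It was 1 of 80 groups of 4 libraries looked at, and chance alone marks about 1 in 20.

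The pooled knockdown effect differed from the knockout effect, by the interaction term of the fit to 12 libraries, for 19 of the 38 named genes tested (log2 knockdown effect minus log2 knockout effect), beside 201 of all 13365 genes in that fit (1.5%). Of the 38, 36 were named for passing the pooled knockdown test in libraries that the interaction also uses, so the share of 19 follows in part from that choice and is given as a description. The fit has 1 coefficient per group, so its error is the spread between libraries of a construct, taken over both arms together. As a coefficient of variation, that spread was 3.07% with 4 construct groups and 15.6% in the knockout arm alone. The shared error can thus understate that of the knockout. For TXNIP the SE was 0.093, against 0.14 for the knockout difference alone, for THY1 0.17 against 0.19, and for RGS4 0.24 against 0.21. The count of 19 rests on this error, which also leaves out the spread between constructs that the pooled test includes. The difference between arms was above 0 for the receptor genes TNFRSF10D (0.819), IGF2R (0.762) and TGFBR2 (0.573), for TXNIP (0.742) and KLF10 (0.581), and for HIST1H2AC (0.798), CDKN1A (0.748), DGCR8 (0.741) and AREL1 (0.709). It was below 0 for the signalling and surface genes RGS4 (-1.41), ELMO1 (-1.13) and THY1 (-1.08), for the secreted and matrix genes STC2 (-0.891), CYR61 (-0.742), CCDC80 (-0.662), NID1 (-0.656) and CTGF (-0.535), and for the ER chaperone genes HSP90B1 (-0.541) and PDIA4 (-0.53). CDKN1A was not called in the pooled comparison itself, and with shRNA 1 it was below scramble (-0.43). The arms also differ in the doxycycline label and in the kind of construct, which cannot be told apart from the perturbation.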

How the results depend on the processing

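Of the 38 named genes, 37 kept their sign under all 22 alternatives and CDKN1A changed it in 1. All 36 that were called kept it, but whether they passed the test depended on the fit. Of the 8 fits without 1 library, TXNIP was called in 2, RGS4 and THY1 in 3 and KLF10 in 5. ARRDC3, PDGFRA and HSP90B1 were called in 0 of them. The 150 called genes became 638 with DESeq2, 4830 with 4 construct groups, 1582 with 6 groups in 12 libraries, 1638 against vector alone, 357 with shRNA 1 alone and 775 with shRNA 2 alone, and 1 at an adjusted p below 0.01 or with counts summed per construct. That gene is not reported here. Other size factors, limma-voom, no filter, a minimum count of 50 and scramble alone gave 148 to 173, and 47 of the 170 against scramble alone were among the 150. The 24 called list members became 61, 356, 162, 199 and 69 with DESeq2, 4 groups, 6 groups, vector alone and shRNA 2 alone, and 0 at the stricter threshold or with summed counts. Without 1 library, 1 to 49 genes and 0 to 13 list members were called. The 1496 genes that did not overlap became 152 where the nearest libraries had to lie at least 1.2 times apart, 3771 against scramble alone and 5487 against vector alone, where fewer libraries must be cleared, and 1738 to 2119 without 1 library. The replicate block left 1 gene and 0 list members called, with 1787 genes at an unadjusted p below 0.05. Replicate numbers did not pair the libraries of the knockdown arm, where deviations of same-numbered libraries correlated at -0.20 to 0.15. In the knockout arm they correlated at -0.83, so replicate 1 of a group went with replicate 2 of the other. The count of 99 of 149 called genes with the same sign in the knockout ran from 75 to 102 over its alternatives. In the main fits it was 66.4%, beside 55.5% of all genes tested in both arms. In the knockout arm a crossed replicate block, chosen after seeing the data, called 72 genes, and without replicate 2 of the knockout control 993 were called. Low counts limit genes such as RGS4, SUN3 and CSF2RB.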

Other observations

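Zinc finger genes with symbols starting in ZNF, a family looked at after the data had been seen, lay above 0 with the hairpins in 243 of 406 cases. Of the 406 tested, 3 rose and 0 fell, 29 lay above all control libraries and 6 below them, and the median was 0.06, beside 0.00054 over all tested genes. Over all tested genes 0.61% rose, 0.578% fell, 5.94% lay above and 5.91% below, so the upward shares of the family are near the background. The family median was 0.05 higher in scramble than in vector and 0.06 in the knockout.

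Some called genes stood outside the lists. EFR3A, which anchors a lipid kinase at the plasma membrane, was at 113, 122, 124 and 130 CPM in the controls and 193, 192, 199 and 183 CPM with the hairpins (0.65, adjusted p 0.010). GPR176, an orphan G protein-coupled receptor gene, was at 222 to 253 CPM in the controls and 140 to 152 CPM with the hairpins (-0.68, adjusted p 0.010). VAMP2, a vesicle fusion gene, was at 67.5 to 75.6 CPM and 100.4 to 110 CPM (0.59, adjusted p 0.013). The survival gene MCL1 rose by 0.44 (adjusted p 0.021), from 360 to 408 CPM to 501 to 537 CPM. Of 2 regulators around YAP, the kinase gene LATS1 rose by 0.39 (adjusted p 0.042) and the TEAD cofactor gene VGLL3 fell by 0.59 (adjusted p 0.019). MIR22HG, the host transcript of a microRNA, rose by 0.71 (adjusted p 0.019) and was at -0.44 in the knockout. These genes were picked after their values had been seen.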
